A study of Homo sapiens with 6 samples.

Results

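The glucose-sensing genes *TXNIP*, *ARRDC4*, *ARRDC3*, *MLXIP*, *MLXIPL*, *SLC2A1*, *SLC2A3* and *TXN* were 8 of the 58735 genes in the expression table. They were compared between wild strain TPC-1 cells and *RRM2*-OE-TPC-1 cells, with 3 libraries in each group. The 8 genes were chosen with their FPKM values in this same comparison in view. Their values are therefore given as a description, without a test. *TXNIP* was 10.5-fold lower and *ARRDC4* 3.36-fold lower in *RRM2*-OE-TPC-1, whereas *TXN* was 1.91-fold higher and *SLC2A1* 1.37-fold higher. *ARRDC3*, *MLXIP* and *MLXIPL* were lower, and *SLC2A3* was close to 0 in all 6 libraries.

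The TPC-1 cell line was derived from a human papillary thyroid carcinoma. *RRM2*-OE-TPC-1 is a puromycin-selected population of these cells infected with a lentivirus that carries *RRM2*, the gene of the small subunit of ribonucleotide reductase, under a CMV promoter. Both groups were grown in RPMI 1640 with serum, and each was sequenced in biological triplicate. For 2 of the overexpressing libraries, replicates 2 and 3, the genotype label reads RRM3 and RRM4, and only the title reads *RRM2*. No library of cells with an empty vector was analysed here, so an effect of *RRM2* cannot be told apart from an effect of infection and selection.

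Glucose sensing by transcription works through a pair of related factors. MondoA, encoded by *MLXIP*, and ChREBP, encoded by *MLXIPL*, bind DNA together with their partner MLX. When glucose 6-phosphate accumulates in the cell, they occupy carbohydrate response elements and activate genes such as *TXNIP* and *ARRDC4*. TXNIP and ARRDC4 belong to the alpha-arrestins, adaptor proteins that bring ubiquitin ligases of the NEDD4 family to membrane proteins. TXNIP promotes removal of the glucose transporter GLUT1, encoded by *SLC2A1*, from the cell surface, and it binds and inhibits thioredoxin, encoded by *TXN*. In this way the pathway feeds back on glucose uptake and touches the redox state of the cell.

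In each library 14317091 to 17084067 reads fell on genes, and mitochondrial genes took 4.29% to 5.89% of them. Replicate 1 of *RRM2*-OE-TPC-1 stood somewhat apart from its group. Its counts differed from those of replicates 2 and 3 with a chi-square per gene of 5.02 and 5.68, against 1.81 between replicates 2 and 3 and 2.92 to 3.08 among the TPC-1 libraries. Between the groups this value was 73.2 to 80.5. *RRM2* had 8.92 ± 0.346 FPKM (SD, n = 3) among TPC-1 libraries, against 48.4 ± 1.78 FPKM (SD, n = 3) among *RRM2*-OE-TPC-1 libraries. FPKM scales fragments by exon length and by sequencing depth, so that levels of different genes can be roughly compared. Of the thyroid markers, *PAX8* was present at 56.3 to 70.8 FPKM and *FOXE1* at 3.10 to 4.41 FPKM, while *NKX2-1* was 0 and *TG*, *TSHR* and *SLC5A5* stayed at or under 0.113 FPKM. Of the 6 epithelial markers 3 reached 0.5 FPKM (*KRT7*, *KRT8* and *KRT18*), with a summed level of 42.9 to 47.1 FPKM in TPC-1 and 88.4 to 90.8 FPKM in *RRM2*-OE-TPC-1. Summed blood cell markers stayed at or under 0.0355 FPKM. Endothelial markers, led by *PECAM1*, summed to 0.873 to 1.05 FPKM in TPC-1 and 0.0667 to 0.115 FPKM in *RRM2*-OE-TPC-1. Fibroblast markers, led by *COL1A1*, summed to 0.844 to 0.977 FPKM and 0.430 to 0.583 FPKM. The summed levels of these marker lists differed between the groups as the genes below did, and their part in the results was not tested.

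The promoters of *TXNIP* and *ARRDC4* are shown because these are the genes of the set that differed most, and because both are known targets of MondoA and ChREBP. The sequences are from RefSeq on GRCh38.p14, read 5′ to 3′ on the strand of the gene, and begin 250 bases before the RefSeq start. They end before the gene as annotated in GENCODE 29. Of the 8 genes 7 matched an entry of the promoter table. In the *TXNIP* promoter (chr1:145996601-145996829, minus strand, 229 bases) the capitals mark, in order, a CCAAT box on the other strand, a forkhead core, another such box on the gene strand and an element of the layout of a carbohydrate response element. In the *ARRDC4* promoter (chr15:97960453-97960697, plus strand, 245 bases) they mark an E-box, a CCAAT box on the other strand and a pair of these on the gene strand.
TXNIP: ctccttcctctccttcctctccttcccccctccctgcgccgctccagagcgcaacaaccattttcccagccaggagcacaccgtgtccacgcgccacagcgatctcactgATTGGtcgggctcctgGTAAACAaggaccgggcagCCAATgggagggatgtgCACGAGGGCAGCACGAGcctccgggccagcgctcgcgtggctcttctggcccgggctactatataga
ARRDC4: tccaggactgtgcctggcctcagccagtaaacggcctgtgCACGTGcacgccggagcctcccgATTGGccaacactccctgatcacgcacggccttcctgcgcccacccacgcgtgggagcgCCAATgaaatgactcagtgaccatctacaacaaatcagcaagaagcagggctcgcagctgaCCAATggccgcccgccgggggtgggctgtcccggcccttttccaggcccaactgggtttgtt
GC content was 63.8% in the first stretch and 63.3% in the second.

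In every promoter window of the table, both strands of the 250 bases before the start were searched for 4 motifs. The 50 bases after the start, which the windows also hold, were not searched. The first, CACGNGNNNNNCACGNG, has the layout of a carbohydrate response element, that is a pair of E-box-like sites with 5 bases between them. It occurred in 16 of 35116 windows (0.0456%), among them the *TXNIP* window, where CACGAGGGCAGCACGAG lay 88 to 72 bases before the start. The genes of the 16 windows include 13 that were tested for expression. Of these only *TXNIP*, which was chosen with its values in view, was past the thresholds given below, beside 11.5% of all tested genes. The median log2 fold change of the 13 was 0.22. No other window of the set held this motif. The E-box CACGTG, which also satisfies either site of the first motif, occurred in 6.35% of windows and lay 210 to 205 bases before the start of *ARRDC4*.

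CCAAT, the core bound by the factor NF-Y, occurred in 32.01% of windows and in those of 5 genes of the set. It was present 2 times in the *TXNIP* window and 3 times in the *ARRDC4* window, counting both strands. GTAAACA, a core recognised by forkhead factors, occurred in 2.98% of windows and in those of *TXNIP* and *ARRDC3*. In *TXNIP* it lay 124 to 118 bases before the start, between the 2 CCAAT boxes. These are matches of letters in a short window, and binding was not measured.

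Expression differences are given as log2 fold changes, or log2 differences, of *RRM2*-OE-TPC-1 over TPC-1 on the scale of log2(FPKM + 0.1), with standard errors from limma, fitted across 13621 genes. A gene passed when its Benjamini-Hochberg adjusted p was 0.05 or less and its absolute log2 fold change was 1 or more. Of all tested genes 11.5% passed, 4.48% with a higher and 6.97% with a lower level in *RRM2*-OE-TPC-1. Of the 8 genes of the set 6 had enough expression to be tested, and 2 of them (*TXNIP* and *ARRDC4*) were past both thresholds, both lower. By adjusted p alone 67.6% of all tested genes passed, and all 6 tested genes of the set did. Genes that pass by adjusted p also have an unadjusted p under 0.05. At least 67.6% of all tested genes therefore met that looser cut-off. The values of the 2 groups did not overlap for 72.2% of all tested genes. The same held for all 6 tested genes of the set. Of the genes not tested, *MLXIPL* did not overlap and *SLC2A3* did. The set was selected on this comparison, and nothing is read from these counts.

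*TXNIP* (ENSG00000265972), which encodes thioredoxin-interacting protein, lies on chromosome 1 from 145992435 to 145996600 on the minus strand of GRCh38. Its level was 174.1, 170.3 and 171.6 FPKM in replicates 1 to 3 of TPC-1 and 16.43, 15.52 and 16.98 FPKM in replicates 1 to 3 of *RRM2*-OE-TPC-1. All 3 TPC-1 libraries were high and all 3 *RRM2*-OE-TPC-1 libraries low, with a wide gap between them. Group means were 172.0 ± 1.92 and 16.3 ± 0.738 FPKM (SD, n = 3 per group), a log2 difference of -3.39 (standard error 0.0391). The means rest on 30830 reads summed over the TPC-1 libraries and 2806 reads summed over the *RRM2*-OE-TPC-1 libraries.

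Among 19951 protein-coding genes ordered by FPKM, *TXNIP* ranked 113 to 116 in the TPC-1 libraries and 2518 to 2754 in the *RRM2*-OE-TPC-1 libraries. It was thus among the most abundant messages of TPC-1 cells and at a moderate, still well detected level in *RRM2*-OE-TPC-1 cells. In bulk libraries, fewer cells with *TXNIP* RNA and less of it per cell cannot be told apart. Only 20 of the 13621 tested genes had a lower log2 fold change. Of all tested genes 36 had a log2 difference of -3 or less, and the median over all of them was 0.01.

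*ARRDC4* (ENSG00000140450), arrestin domain containing 4, is the alpha-arrestin closest to TXNIP in function and another target of MondoA. It lies on chromosome 15 from 97960698 to 97973838 on the plus strand. Its level was 9.99, 8.75 and 10.1 FPKM in TPC-1 and 2.45, 3.01 and 3.13 FPKM in *RRM2*-OE-TPC-1. The groups did not overlap, and replicate 1 of *RRM2*-OE-TPC-1, the library that stood apart, was the lowest. Means were 9.61 ± 0.745 and 2.86 ± 0.365 FPKM (SD, n = 3 per group), a log2 difference of -1.72 (standard error 0.102). Without that library the log2 fold change was -1.61. *TXNIP* exceeded *ARRDC4* by 18.0 ± 1.31 times in TPC-1 and by 5.77 ± 0.833 times in *RRM2*-OE-TPC-1 (ratio of FPKM, mean ± SD of 3 libraries), so the larger of the pair also differed more.

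*ARRDC3* (ENSG00000113369), an alpha-arrestin known for the regulation of membrane receptors and integrin beta 4, lies on chromosome 5 from 91368724 to 91383359 on the minus strand. Its level was 7.31, 8.44 and 7.41 FPKM in TPC-1 and 4.880, 4.602 and 4.770 FPKM in *RRM2*-OE-TPC-1. The groups did not overlap, yet the log2 fold change of -0.69 (standard error 0.0677) was short of the fold threshold. The antisense gene *ARRDC3-AS1*, whose exons overlap those of *ARRDC3*, was at a mean of 0.157 FPKM over the 6 libraries.

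**Figure D1:**
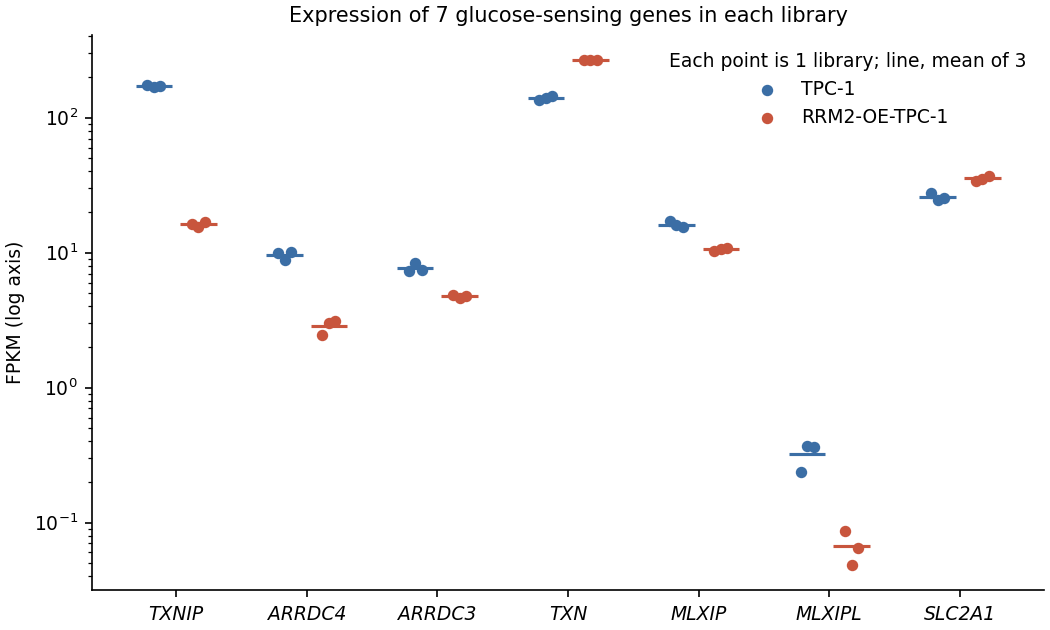
FPKM (log axis) of 7 of the 8 glucose-sensing genes in each of the 3 TPC-1 and 3 *RRM2*-OE-TPC-1 libraries, with points for libraries and lines for group means. *TXNIP* separates the groups most widely among the genes above 1 FPKM, *TXN* and *SLC2A1* had higher values in the *RRM2*-OE-TPC-1 libraries, and *SLC2A3*, which had 1 read in all, is not drawn.

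The make-up of the alpha-arrestin family differed between the groups as a result of these values. The summed level of its 6 genes was 202.4 ± 2.19 FPKM in TPC-1 and 36.0 ± 1.62 FPKM in *RRM2*-OE-TPC-1 (mean ± SD of 3 libraries). *TXNIP* made up 85.0% ± 0.0874 of the sum in TPC-1, against 45.4% ± 0.303 in *RRM2*-OE-TPC-1. The share of *ARRDC1* was 4.55% and 24.4%, that of *ARRDC3* 3.82% and 13.2%, that of *ARRDC2* 1.84% and 8.70%, and that of *ARRDC4* 4.74% and 7.97%. Shares of a sum are not independent of each other, and the larger shares of the other alpha-arrestins do not mean higher levels. Levels of *ARRDC1* and *ARRDC2* overlapped between the groups.

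*ARRDC1*, which takes part in the budding of vesicles at the cell surface, had 9.21 ± 0.278 FPKM in TPC-1 and 8.79 ± 0.510 FPKM in *RRM2*-OE-TPC-1 (mean ± SD of 3 libraries). Its log2 difference was -0.07 (limma adjusted p = 0.304). *ARRDC1-AS1*, on the opposite strand, overlaps it by 29 bases of exon and was at a mean of 8.35 FPKM. *ARRDC2* had 3.72 ± 0.335 and 3.14 ± 0.359 FPKM (mean ± SD of 3 libraries), a log2 difference of -0.24 (limma adjusted p = 0.0653). *ARRDC5* was at a mean of 0.133 FPKM in TPC-1 and 0.110 FPKM in *RRM2*-OE-TPC-1 and was not tested. Of these 3 alpha-arrestins outside the set 2 were tested and none passed, and voom on recovered reads called none. An unadjusted p under 0.05 was found for 1, beside at least 67.6% of all tested genes. Values of *ARRDC2* and *ARRDC5* were seen ahead of naming them.

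**Figure D2:**
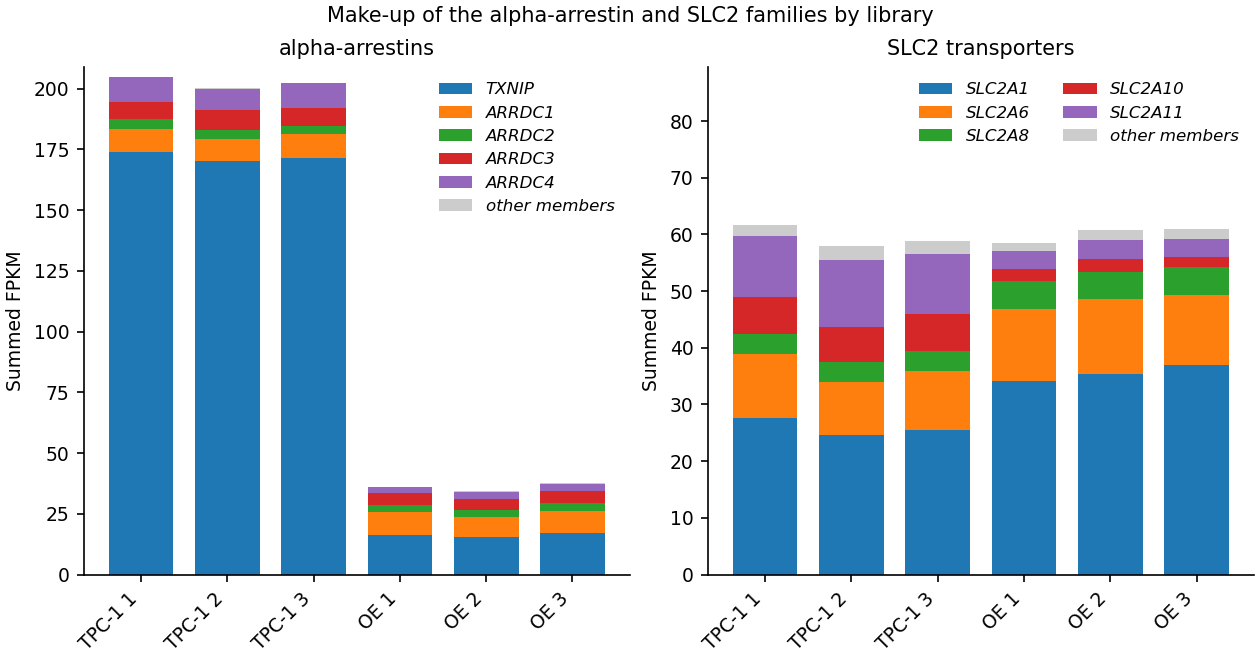
Summed FPKM of the alpha-arrestin genes (left) and the SLC2 transporter genes (right) in each library, stacked by gene, with OE for *RRM2*-OE-TPC-1. The alpha-arrestin sum was 202.4 FPKM in TPC-1 and 36.0 FPKM in *RRM2*-OE-TPC-1, whereas the SLC2 sum was 59.5 and 60.1 FPKM with a different make-up.

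*TXN* (ENSG00000136810), which encodes thioredoxin, the small protein that reduces disulfide bonds and is bound by TXNIP, lies on chromosome 9 from 110243811 to 110256640 on the minus strand. Its level was 134.9, 140.6 and 144.3 FPKM in TPC-1 and 267.8, 266.4 and 266.2 FPKM in *RRM2*-OE-TPC-1. All 3 *RRM2*-OE-TPC-1 libraries were above all 3 TPC-1 libraries and lay within a narrow range. Means were 139.9 ± 4.78 and 266.8 ± 0.862 FPKM (SD, n = 3 per group), a log2 difference of 0.93 (standard error 0.0358), just short of the fold threshold. Among protein-coding genes it ranked 146 to 173 in TPC-1 and 72 or 73 in *RRM2*-OE-TPC-1. The processed pseudogenes of *TXN* listed in the table held at most 4 reads each over the 6 libraries.

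Because *TXN* was higher where *TXNIP* was lower, the ratio of the pair differed widely between the groups. The ratio of *TXN* to *TXNIP* in FPKM was 0.775, 0.826 and 0.841 in TPC-1 and 16.3, 17.2 and 15.7 in *RRM2*-OE-TPC-1. By FPKM, *TXNIP* was thus above *TXN* in all 3 TPC-1 libraries and below it in all 3 *RRM2*-OE-TPC-1 libraries. FPKM here divides by exon length merged over transcripts, 1142 bases for *TXN* and 3625 bases for *TXNIP*. The lengths of the expressed isoforms were not examined. The TPC-1 ratios lie near 1, so the order of the pair there depends on these lengths. A fixed length cancels in the comparison between the groups. The mean ratio was 0.814 ± 0.0347 and 16.4 ± 0.749 (SD, n = 3 per group), 20.1 times as high in *RRM2*-OE-TPC-1. These are ratios of RNA, and protein was not measured in these libraries.

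The rest of the thioredoxin system was read from a list of 17 genes of reductases, peroxiredoxins, methionine sulfoxide reductases and related proteins. All 17 were tested and none passed both thresholds with limma, or with voom on recovered reads. At an unadjusted p under 0.05 there were 16, and by adjusted p alone 9 were higher and 6 lower. Of all tested genes 67.6% passed by adjusted p alone, and at least that share had an unadjusted p under 0.05. The median log2 difference of the list was 0.17 against 0.01 over all tested genes. *PRDX1*, a peroxiredoxin that thioredoxin recycles, was the most abundant gene of the list over all 6 libraries. It had 242.9 ± 3.43 FPKM in TPC-1 and 307.8 ± 10.8 FPKM in *RRM2*-OE-TPC-1 (mean ± SD of 3 libraries). Its log2 difference was 0.34 (limma adjusted p = 9.25e-05), and its exons overlap those of *MMACHC* on the opposite strand. The following 3 genes were named after their values were seen. *TXNRD1*, the cytosolic reductase of thioredoxin, had a log2 difference of -0.11, while *PRDX5* had -0.97 and *MSRB1* 0.92, the lowest and the highest of the list.

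*MLXIP* (ENSG00000175727), which encodes MondoA, lies on chromosome 12 from 122078722 to 122147347 on the plus strand. Its level was 17.02, 15.97 and 15.42 FPKM in TPC-1 and 10.31, 10.69 and 10.81 FPKM in *RRM2*-OE-TPC-1. The groups did not overlap. Means were 16.1 ± 0.812 and 10.6 ± 0.260 FPKM (SD, n = 3 per group), a log2 difference of -0.60 (standard error 0.0479), short of the fold threshold. The RNA of the factor was thus lower as well as that of *TXNIP* and *ARRDC4*, by a smaller amount than either.

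*MLXIPL* (ENSG00000009950), which encodes ChREBP, the paralog that acts mainly in liver, fat and gut, lies on chromosome 7 from 73593194 to 73624543 on the minus strand. Its level was 0.236, 0.370 and 0.365 FPKM in TPC-1 and 0.0862, 0.0485 and 0.0652 FPKM in *RRM2*-OE-TPC-1. This corresponds to 19, 30 and 28 reads in TPC-1 and 6, 4 and 5 reads in *RRM2*-OE-TPC-1. The groups did not overlap, but the gene was under the expression minimum and was not tested. The summed reads were 77 against 15, and their ratio after division by the summed depth of each group was 4.93 (TPC-1 over *RRM2*-OE-TPC-1), with a 95% interval of 2.81 to 9.24 that covers counting error only. In both groups *MLXIP* was by far the more abundant of the pair.

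*MLX*, the shared partner of MondoA and ChREBP, had 6.47 ± 0.225 FPKM in TPC-1 and 7.41 ± 0.0889 FPKM in *RRM2*-OE-TPC-1 (mean ± SD of 3 libraries). Its log2 difference was 0.19 (limma adjusted p = 0.00792), and its exons overlap those of *PSMC3IP* on the opposite strand. The ratio of *MLXIP* to *MLX* was 2.50 ± 0.0483 in TPC-1, against 1.43 ± 0.0453 in *RRM2*-OE-TPC-1 (mean ± SD of 3 libraries). *MLX* was named after its values were seen.

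The list of the partner and known targets of MondoA and ChREBP held 21 genes, of which 14 were tested. Among these 5 were called lower and 1 higher, beside 6.97% lower and 4.48% higher of all tested genes. *THRSP*, among the 5, was tested only through its level in TPC-1. By adjusted p alone 9 were lower and 5 higher, beside 67.6% of all tested genes in either direction. The median log2 difference of the 14 was -0.74. The 5 that fell were genes of fatty acid synthesis, 4 of them enzymes. *SCD*, which introduces a double bond into fatty acids, fell from 473.2 ± 2.96 to 76.0 ± 1.65 FPKM (mean ± SD of 3 libraries), a log2 difference of -2.64 (limma adjusted p = 2.91e-09). *FASN*, the fatty acid synthase, fell from 167.6 ± 7.93 to 63.9 ± 1.24 FPKM (mean ± SD of 3 libraries), a log2 difference of -1.39 (limma adjusted p = 9.88e-08).

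*ELOVL6*, which lengthens fatty acids, fell by 1.82 on the log2 scale (limma adjusted p = 3.87e-08). *THRSP*, a regulator of lipid synthesis, fell from 0.919 ± 0.311 to 0.139 ± 0.0723 FPKM (mean ± SD of 3 libraries), a log2 difference of -2.09 at a low level (limma adjusted p = 5.81e-04). It had 18, 12 and 23 reads in TPC-1 and 1, 4 and 3 reads in *RRM2*-OE-TPC-1. *THRSP* thus met the expression minimum only through TPC-1, so the direction of its call was set by the filter. Its exons overlap those of *NDUFC2* on the opposite strand by 48 bases. *ACACA*, the cytosolic acetyl-CoA carboxylase, fell by 1.18 (limma adjusted p = 1.13e-07). *ACACB*, the mitochondrial form, rose from 1.39 ± 0.0128 to 3.03 ± 0.0789 FPKM (mean ± SD of 3 libraries), a log2 difference of 1.07 (limma adjusted p = 8.96e-06). *ACACA* and *ACACB* were named after their values were seen. The fatty acid genes of this list are also regulated by other factors, and the part of MondoA was not tested.

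The other targets of the list lay on either side of 0 and did not pass both thresholds. *LDHA*, a lactate dehydrogenase gene and the most abundant of the list over all 6 libraries, had 265.2 ± 9.46 and 331.3 ± 4.57 FPKM (mean ± SD of 3 libraries). Its log2 difference was 0.32 (limma adjusted p = 1.41e-04). The other target genes of this paragraph were named after their values were seen. *PFKFB3*, which makes an activator of glycolysis, had a log2 difference of 0.68, and *KLF10*, a transcription factor, -0.35. *TKFC*, a kinase of fructose metabolism, had -0.73. Of the genes tied to lipid synthesis that did not pass both thresholds, *ME1* had -0.79, *PNPLA3* -0.75 and *ACLY* 0.10. *PKLR*, a target of ChREBP in liver, had a mean of 0.0189 FPKM in TPC-1, was 0 in *RRM2*-OE-TPC-1 and was not tested.

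**Figure D3:**
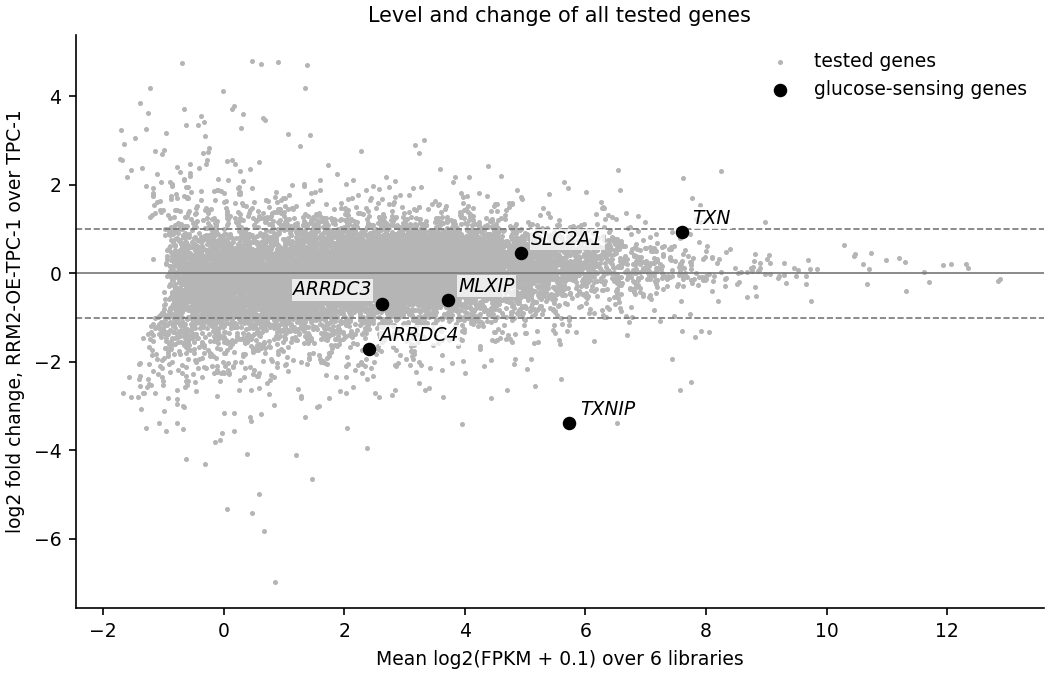
Log2 fold change of *RRM2*-OE-TPC-1 over TPC-1 against the mean log2(FPKM + 0.1) over 6 libraries for the 13621 tested genes (grey) and the 6 tested glucose-sensing genes (black), with dashed lines at -1 and 1. *TXNIP* at -3.39 lies well below the bulk of the genes of its level, *ARRDC4* lies below the lower line, and *TXN* at 0.93 lies just under the upper line.

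*SLC2A1* (ENSG00000117394), which encodes the glucose transporter GLUT1, lies on chromosome 1 from 42925375 to 42959176 on the minus strand. Its level was 27.7, 24.6 and 25.5 FPKM in TPC-1 and 34.1, 35.4 and 36.9 FPKM in *RRM2*-OE-TPC-1. The groups did not overlap. Means were 25.9 ± 1.59 and 35.5 ± 1.41 FPKM (SD, n = 3 per group), a log2 difference of 0.45 (standard error 0.0517), well short of the fold threshold. The ratio of *SLC2A1* to *TXNIP* was 0.151 ± 0.00752 in TPC-1, against 2.18 ± 0.102 in *RRM2*-OE-TPC-1 (mean ± SD of 3 libraries). The lincRNA genes *SLC2A1-AS1* and *AC099795.1*, which overlap its exons, were at means of 0.141 and 0.0348 FPKM.

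*SLC2A3* (ENSG00000059804), which encodes the high-affinity transporter GLUT3, lies on chromosome 12 from 7919230 to 7936275 on the minus strand. It had 1 read in replicate 2 of TPC-1 (0.0097 FPKM) and 0 reads in the other 5 libraries. A count of 0 allows up to 3 reads, or 0.0284 to 0.0337 FPKM depending on the library, so a difference in *SLC2A3* was not detectable at this depth. Its close copy *SLC2A14*, with which it can share reads, had 1 read in TPC-1 replicate 2 and 1 in *RRM2*-OE-TPC-1 replicate 2. Reads that fit both copies are an uncertainty of the counting, and the treatment of such reads was not given in the sources used here.

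The 14 SLC2 genes, which carry glucose, fructose and related sugars, summed to 59.5 ± 1.99 FPKM in TPC-1 and 60.1 ± 1.34 FPKM in *RRM2*-OE-TPC-1 (mean ± SD of 3 libraries). The sums overlapped, whereas the make-up differed. *SLC2A1* made up 43.6% ± 1.20 in TPC-1, against 59.1% ± 1.32 in *RRM2*-OE-TPC-1 (mean ± SD of 3 libraries), and *SLC2A6* 17.3% and 21.3%. *SLC2A11* made up 18.6% and 5.35%, and *SLC2A10* 10.8% and 3.47%.

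Of the 14 listed transporters outside the set, which include 2 SLC5 genes, 6 were tested, 2 fell and 0 rose past both thresholds with limma. Of all tested genes 6.97% fell and 4.48% rose past both. At an unadjusted p under 0.05, as by adjusted p alone, 2 were higher and 3 lower. By adjusted p alone 67.6% of all tested genes passed. Voom on recovered reads called 3 lower and 0 higher. *SLC2A11*, a fructose and glucose transporter, fell from 11.1 ± 0.636 to 3.21 ± 0.0640 FPKM (mean ± SD of 3 libraries), a log2 difference of -1.75 (limma adjusted p = 1.78e-07). Its exons overlap those of genes at or under 0.182 FPKM. *SLC2A10*, which encodes GLUT10, fell from 6.43 ± 0.146 to 2.08 ± 0.324 FPKM (mean ± SD of 3 libraries), a log2 difference of -1.59 (limma adjusted p = 5.24e-06). *SLC2A6*, the most abundant of the list over all 6 libraries, had 10.3 ± 0.927 and 12.8 ± 0.434 FPKM (mean ± SD of 3 libraries). Its log2 difference was 0.32 (limma adjusted p = 0.00347). The median of the list was -0.35.

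Glucose 6-phosphate, the signal that MondoA reads, is made and used by 15 listed enzymes and transporters, of which 10 were tested. A single gene, *PGM2*, which interconverts sugar phosphates, rose past both thresholds, from 5.66 ± 0.362 to 12.0 ± 0.737 FPKM (mean ± SD of 3 libraries). Its log2 difference was 1.07 (limma adjusted p = 3.31e-06), and no gene of the list fell past both thresholds with limma or with voom. Of all tested genes 4.48% rose and 6.97% fell past both thresholds with limma. At an unadjusted p under 0.05, 5 listed genes were higher and 4 lower, beside at least 67.6% of all tested genes. The hexokinase genes *HK1*, *HK2* and *HKDC1*, whose products make glucose 6-phosphate, were named after their values were seen. They had log2 fold changes of 0.48, 0.48 and -0.33. The median of the list was 0.21.

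AMP-activated protein kinase, a sensor of low energy, phosphorylates TXNIP, which leads to its degradation. Of 8 listed genes of its subunits and its activator 7 were tested, and none passed both thresholds with limma or with voom. At an unadjusted p under 0.05, as by adjusted p alone, 1 was higher and 4 were lower. By adjusted p alone 67.6% of all tested genes passed. The median log2 difference of the list was -0.16. *PRKAA1*, the gene of a catalytic subunit and the most abundant of the list, had 15.2 ± 0.250 and 15.2 ± 0.329 FPKM (mean ± SD of 3 libraries), a log2 difference of 0.00 (limma adjusted p = 0.927).

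The NEDD4 family of ubiquitin ligases binds the PY motifs of alpha-arrestins. All 9 listed ligases were tested, of which 2 rose and 0 fell with limma and with voom. Of all tested genes 4.48% rose and 6.97% fell past both thresholds with limma. At an unadjusted p under 0.05, 6 were higher and 2 lower, beside at least 67.6% of all tested genes. The median log2 difference of the list was 0.21. *NEDD4L* rose from 9.54 ± 0.234 to 20.9 ± 0.782 FPKM (mean ± SD of 3 libraries), a log2 difference of 1.12 (limma adjusted p = 3.26e-07). *SMURF2* rose from 6.16 ± 0.0694 to 13.1 ± 0.674 FPKM (mean ± SD of 3 libraries), a log2 difference of 1.07 (limma adjusted p = 8.80e-07). Its exons overlap those of *CEP95* on the opposite strand. *WWP1*, the most abundant ligase of the list over all 6 libraries, had a log2 difference of 0.19 (limma adjusted p = 0.00262). Exons of *WWP1* overlap those of *RMDN1* on the opposite strand. *ITCH*, the ligase known to ubiquitinate TXNIP itself and named after its values were seen, had -0.20.

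The retromer and its sorting nexins return GLUT1 from endosomes to the cell surface. All 9 listed genes were tested and none passed both thresholds with limma or with voom. At an unadjusted p under 0.05, as by adjusted p alone, 3 were higher and 2 lower. By adjusted p alone 67.6% of all tested genes passed. *SNX6*, the most abundant, had 35.0 ± 1.30 and 32.9 ± 0.676 FPKM (mean ± SD of 3 libraries), a log2 difference of -0.09 (limma adjusted p = 0.0728). The median of the list was 0.05.

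Among 5 listed proteins that alpha-arrestins are known to act on or bind, 4 genes were tested, and 2 of them rose and 0 fell with limma and with voom. Of all tested genes 4.48% rose and 6.97% fell past both thresholds with limma. At an unadjusted p under 0.05, 3 listed genes were higher and 0 lower, beside at least 67.6% of all tested genes. *NLRP3*, the inflammasome sensor that TXNIP binds, rose from 0.613 ± 0.0967 to 6.15 ± 0.218 FPKM (mean ± SD of 3 libraries). Its values were 0.705, 0.513 and 0.620 FPKM in TPC-1 and 6.40, 6.03 and 6.02 FPKM in *RRM2*-OE-TPC-1, a log2 difference of 3.14 (limma adjusted p = 2.69e-07). *F2R*, the thrombin receptor and the most abundant of the list, had a log2 difference of 0.04 (limma adjusted p = 0.537). *ITGB4* was at 0.336 FPKM in TPC-1 and 0.0290 FPKM in *RRM2*-OE-TPC-1 (means) and was not tested. It was named after its values were seen.

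**Figure D4:**
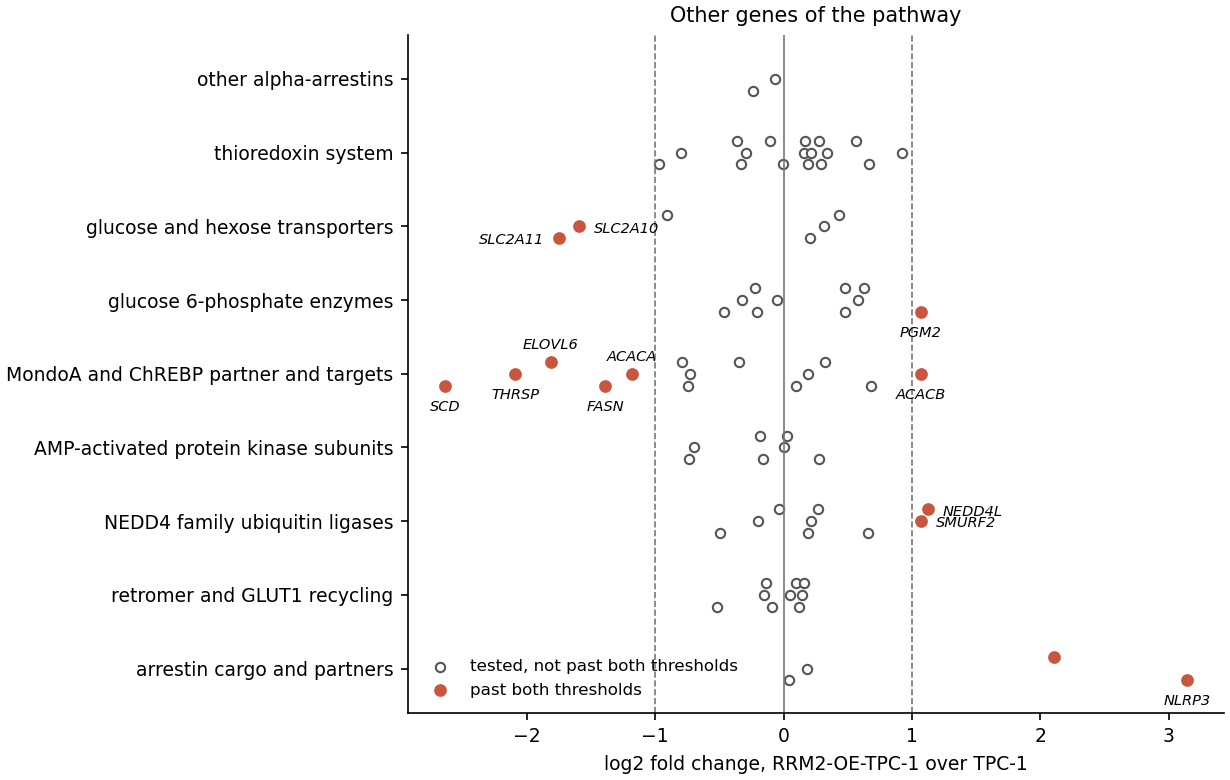
Log2 fold change of *RRM2*-OE-TPC-1 over TPC-1 for the tested genes of the 9 lists, with each point a gene, filled where it passed both thresholds and named where the text gives it, and dashed lines at -1 and 1. Filled points stand to the left in the transporter list and mainly to the left among MondoA and ChREBP targets, to the right among ligases, arrestin cargo and glucose 6-phosphate enzymes, and 4 lists hold none.

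Over the 9 lists together, 101 genes were listed, 78 were tested, 6 rose and 7 fell. This was 13 of 78, beside 11.5% of all tested genes, and the median log2 difference of the 78 was 0.03. The 23 genes that were not tested were under the expression minimum. By adjusted p alone 33 were higher and 30 lower, beside 67.6% of all tested genes in either direction.

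The genes whose pattern over the 6 libraries came nearest to that of *TXNIP* were found by the root mean square difference of log2(FPKM + 0.1), after each gene was centred on its mean in TPC-1. *KIF12*, a kinesin, was nearest at 0.0537, with 50.5 ± 1.85 FPKM in TPC-1 and 4.67 ± 0.121 FPKM in *RRM2*-OE-TPC-1 (mean ± SD of 3 libraries). *DDIT4*, an inhibitor of mTOR signaling that is induced by stress, followed at 0.0967 and was more abundant than *TXNIP* in both groups, with 297.0 ± 22.0 and 28.3 ± 1.53 FPKM (mean ± SD of 3 libraries). *ZNF467*, a zinc finger gene, was the third at 0.193, with means of 7.75 and 0.739 FPKM. Log2 fold changes were -3.41 for *KIF12*, -3.39 for *DDIT4* and -3.25 for *ZNF467*, against -3.39 for *TXNIP*.

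Nearest to *ARRDC4* by the same measure were *OLFML2A* at 0.0744, *PTK2B* at 0.0908 and *FPR1* at 0.101. Their log2 fold changes were -1.80, -1.69 and -1.67, against -1.72 for *ARRDC4*. *OLFML2A* encodes a secreted protein, *PTK2B* a tyrosine kinase and *FPR1* a receptor of formyl peptides. Their means were 6.20, 6.18 and 7.54 FPKM in TPC-1 and 1.71, 1.85 and 2.30 FPKM in *RRM2*-OE-TPC-1. With 2 groups of 3 libraries the measure reads mainly the size of the difference between groups, so likeness here says little beyond it.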

How the data were processed

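Libraries of 3 wild strain TPC-1 and 3 *RRM2*-OE-TPC-1 cultures were compared, grouped by the sample titles. The deposited values are FPKM: the authors used fastp for cleaning, HISAT2 for alignment and featureCounts for counting. Their methods state that each count was then scaled by gene length and sequencing depth. The submitters' processing notes give HISAT2 2.0.5, featureCounts 1.5.0, DESeq2 1.20.0 and GRCh38.p14. The use of strand in counting was not given in the sources used here, so genes with exons that overlap on opposite strands are uncertain. For library construction the methods name poly(A) selection, and the labels ribosomal RNA depletion followed by RNase R. All 58735 identifiers and positions were those of GENCODE 29, and 58723 symbols were the same.

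Each FPKM value multiplied by gene length was a whole multiple of the step of its library (100% of values within 0.01), which gave the reads behind it. The depth implied by this step followed median-of-ratios size factors, with a relative ratio of 0.9990 to 1.0012. These factors take the median over genes of a library's reads relative to all libraries. Against the reads on genes, the implied depth was 1.03 to 1.05 times in TPC-1 and 0.997 to 1.01 times in *RRM2*-OE-TPC-1. Genes with at least 0.5 FPKM and at least 10 reads in at least 3 libraries were tested with limma 3.58.1 (lmFit, eBayes with trend) in R 4.3.3 on log2(FPKM + 0.1), with Benjamini-Hochberg adjustment. A fold change on this scale understates that of low genes. A gene that met the minimum in a single group could be called only as higher in that group. The rest was computed in Python 3.11.15 (scipy 1.17.1, pandas 2.3.3, numpy 2.4.6) and drawn with matplotlib 3.10.9. With 3 libraries against 3, an exact permutation test cannot give a p under 0.1. On simulated data for this comparison, with 13670 genes tested, 195 of 195 changed genes and 4 unchanged genes were called. With no gene changed, 0 of 13662 were called. Every changed gene was simulated with a fold change well beyond the fold threshold, and only well-read genes were changed. A single fixed dispersion was used for all genes. High recovery was thus largely set by these choices, and the recovery of genes near the fold threshold was not tested.

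The 8 genes and the lists were chosen with earlier results of these data known. Of each list the text names the called genes, up to 4 of them, and the gene with the highest mean FPKM, and it says where other genes were named after their values were seen. Also named are *RRM2*, genes that overlap or copy the 8, and the 3 protein-coding genes nearest to *TXNIP* and to *ARRDC4*. Some genes that this covers are counted in the lists and their values are not reported here. Promoters and motif shares are from RefSeq. Alternatives covered pseudocounts, filters, scaling, leaving out each library, a block for the replicate number, the thresholds and voom.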

Additional observations from a re-analysis of the deposited data

How the results depend on the processing

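No log2 fold change of the 6 tested glucose-sensing genes or of the 13 called listed genes changed its sign under the alternatives that gave it a new value. With a pseudocount of 1, 716 genes passed both thresholds (303 higher, 413 lower) and 3 listed genes were called higher, and the log2 fold change was -3.32 for *TXNIP*, -1.46 for *ARRDC4* and -0.60 for *ARRDC3*. The listed genes *ACACB* (0.75), *PGM2* (0.96), *SMURF2* (0.97) and *THRSP* (-0.74) then lost their calls, as the larger pseudocount shrinks the fold of low genes. Without the filter on low values 920 genes were called higher, 2281 in all. Scaled to library totals, where the median over all genes was -0.05 on the log2 scale, *TXNIP* had -3.45, *MLXIP* -0.66 and *TXN* 0.87, and 1645 genes passed (537 higher, 1108 lower). A test of a change above 1 left 618 genes (235 higher, 383 lower) and 8 listed genes, 2 of them higher. By adjusted p alone 9207 genes passed (4758 higher, 4449 lower), and 63 listed genes (33 higher, 30 lower), so that higher genes outnumbered lower ones, whereas with both thresholds lower genes did (610 higher, 950 lower, and 6 higher, 7 lower among listed genes).

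With each library left out in turn, 1573 to 1608 genes passed and 13 or 14 listed genes. Log2 fold changes then ranged from -3.42 to -3.36 for *TXNIP*, -1.78 to -1.61 for *ARRDC4*, -0.72 to -0.62 for *ARRDC3*, -0.63 to -0.56 for *MLXIP*, 0.42 to 0.50 for *SLC2A1* and 0.90 to 0.95 for *TXN*. Voom on the recovered reads, chosen after seeing the data, called 1732 genes. The 13 called listed genes had 182 values under the 14 alternatives other than the test of a change above 1 and adjusted p alone. Of these values 178 kept the call, 4 lost it and 0 changed sign. The filters and the replicate block leave a fold change as it was, so under them only the adjusted p could alter a call. Median-of-ratios factors nearly match the deposited scaling. The 178 therefore include values that had little room to change. The replicate numbers did not pair the libraries: same-numbered libraries had correlations of -0.01, -0.01 and -0.06, and the fit with the replicate number as a block called 1566 genes, so the numbers are only names. The planned DESeq2 and edgeR tests were not run because the deposited unit is FPKM. Depth limits *MLXIPL* and *SLC2A3*, which had at most 77 reads in a group.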
